A study of Drosophila melanogaster with 2 samples.

Results

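Binding of the fly protein CG9215, tagged with enhanced green fluorescent protein, was examined at 10 genes of the ecdysone response and the nuclear receptor family: EcR, usp, ERR, Eip75B, Eip74EF, Hr3, Hr38, Hr39, ftz-f1 and Hnf4. The genes were chosen by symbol, all 10 were found among the 18277 annotated genes used, and all are among the 13968 protein-coding ones. The chromatin came from whole Drosophila melanogaster embryos aged 0 to 24 h of a transgenic strain with the CG9215-eGFP fusion, and was immunoprecipitated with an antibody against GFP and sequenced. The labels give 1 group of 2 biological replicates, with no other genotype, treatment or time. The promoter that drives the fusion is not given in the labels, and all cells of the embryo were pooled, so a peak in few cells and a weaker peak in many cells cannot be told apart. A peak was assigned to a gene when its summit, the position of highest enrichment, lay in the gene body or within 2 kb of either end. There is no contrast between conditions, so the values are described without a test, beside the same counts over all protein-coding genes.

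Ecdysone is the steroid hormone of insects, and in flies its pulses time developmental transitions, including one in the middle of embryogenesis. It acts through a receptor made of EcR and its partner Ultraspiracle, the product of usp and the fly relative of the vertebrate RXR proteins. The receptor turns on early genes such as Eip75B, which encodes a heme-binding nuclear receptor, and Eip74EF, which encodes an ETS-domain factor and no nuclear receptor. A later wave includes Hr3, a relative of the vertebrate ROR proteins that promotes ftz-f1 expression and is inhibited by the Eip75B product. ERR and Hnf4 encode receptors that direct carbohydrate and lipid metabolism, while Hr38 belongs to the group of NGFI-B-like receptors and can pair with Ultraspiracle.

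The sequences at 5 of the summits are printed because they show the range of base composition among these peaks, from A+T-rich promoter and intron sites to a coding exon rich in G and C. All are from the plus strand of the RefSeq copy of Release 6, which the files name dm6, within windows that reach 50 bases to each side of the summits. The ERR and usp windows were shortened to leave out annotated untranslated regions. Capitals mark uninterrupted runs of at least 8 A or T bases.
ERR promoter, signal 667, chr3L:8186786-8186856: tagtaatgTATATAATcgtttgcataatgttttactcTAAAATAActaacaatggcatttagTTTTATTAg
usp promoter, signal 276, chrX:2041409-2041460: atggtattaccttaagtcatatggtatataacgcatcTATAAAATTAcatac
Hnf4 internal promoter, signal 232, chr2L:8691413-8691513: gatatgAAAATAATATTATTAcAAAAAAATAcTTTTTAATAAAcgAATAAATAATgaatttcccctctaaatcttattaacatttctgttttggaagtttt
Eip75B intron, signal 201.4, chr3L:18003495-18003595: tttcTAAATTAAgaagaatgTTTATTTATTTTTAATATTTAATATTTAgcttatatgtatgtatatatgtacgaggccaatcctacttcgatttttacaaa
Hr38 coding exon, signal 92.4, chr2L:20687998-20688098: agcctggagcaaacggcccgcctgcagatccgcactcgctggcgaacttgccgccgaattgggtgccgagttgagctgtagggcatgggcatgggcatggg

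The conservative list, the authors' list of peaks that recur between both replicates, held 18 summits at 7 of the 10 genes. These were Eip75B with 5 summits, Hr38 with 3, and EcR, usp, ERR, Hr3 and Hnf4 with 2 each. Eip74EF, Hr39 and ftz-f1 had none. Under the same rule, 30.6% of all protein-coding genes had one, but that share rose with gene length, from 21.4% of genes under 2 kb to 61.3% of genes of 50 kb or longer. Among the 8 ecdysone response and receptor genes of 20 kb or longer, 5 had a summit, beside 56.0% of all 1020 such protein-coding genes. The count in the long genes was thus near the share for genes of that length. The other 2 genes, usp and ERR, are 3.51 and 3.31 kb long and both had a summit, beside 28.6% of genes under 20 kb.

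**Figure D1:**
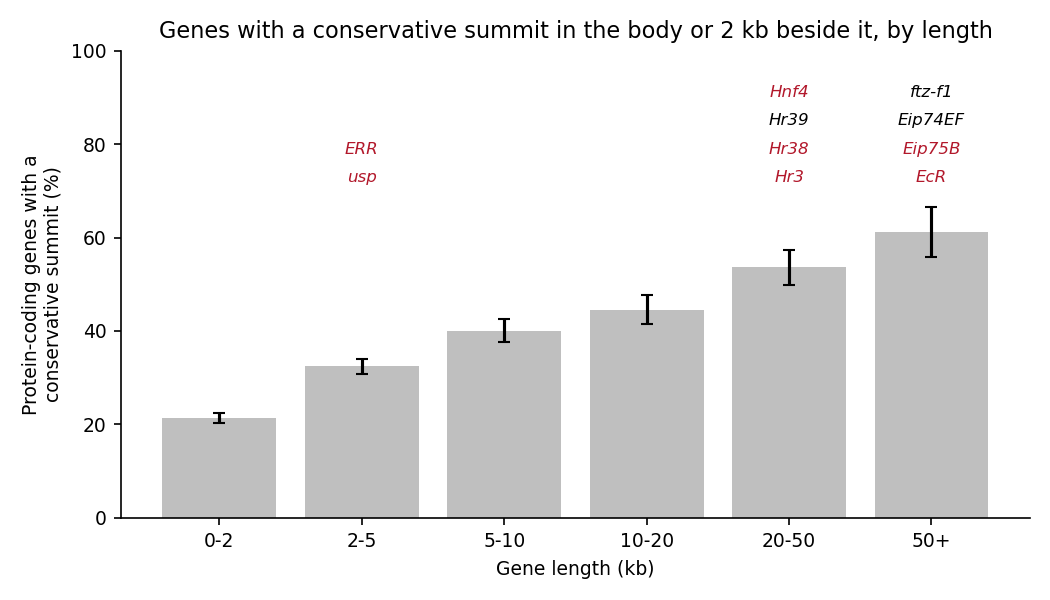
Share of protein-coding genes (%) with a conservative summit in the gene body or within 2 kb of it, by gene length in kb; error bars are Wilson 95% intervals over genes. The share rises from 21.4% to 61.3%, and the names above the bars are the 10 genes in their length class, red with and black without a conservative summit.

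At promoters, a conservative summit lay no more than 500 bp from an own start site in 5 of the 10 genes: EcR, usp, ERR, Eip75B and Hnf4. Over all protein-coding genes this share was 17.3%, and over those of 20 kb or longer it was 21.4%, beside 3 of the 8 long genes described here. The 10 genes have 31 annotated start sites in all, of which 6 had a conservative summit within 500 bp. Over all protein-coding genes 15.5% of 19630 start sites did. Both start sites of ERR were occupied, whereas Eip75B had a summit at 1 of 7 start sites, Hnf4 at 1 of 5, EcR at 1 of 4 and usp at 1 of 2. At the 25 start sites without a conservative summit, the ranked lists, which hold weak peaks too, had a peak at 12 in replicate 1, with signals of 8.12 to 28.9, and at 12 in replicate 2, with signals of 4.97 to 37.4. The weakest start-site peak of a gene in the conservative list, other than a flank of the Hnf4 peak, was that of ERR-RB. It had 61.0 in replicate 1 and 52.2 in replicate 2. The conservative list was made from the same replicates, so weaker signals at start sites outside it follow from this split.

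**Figure D2:**
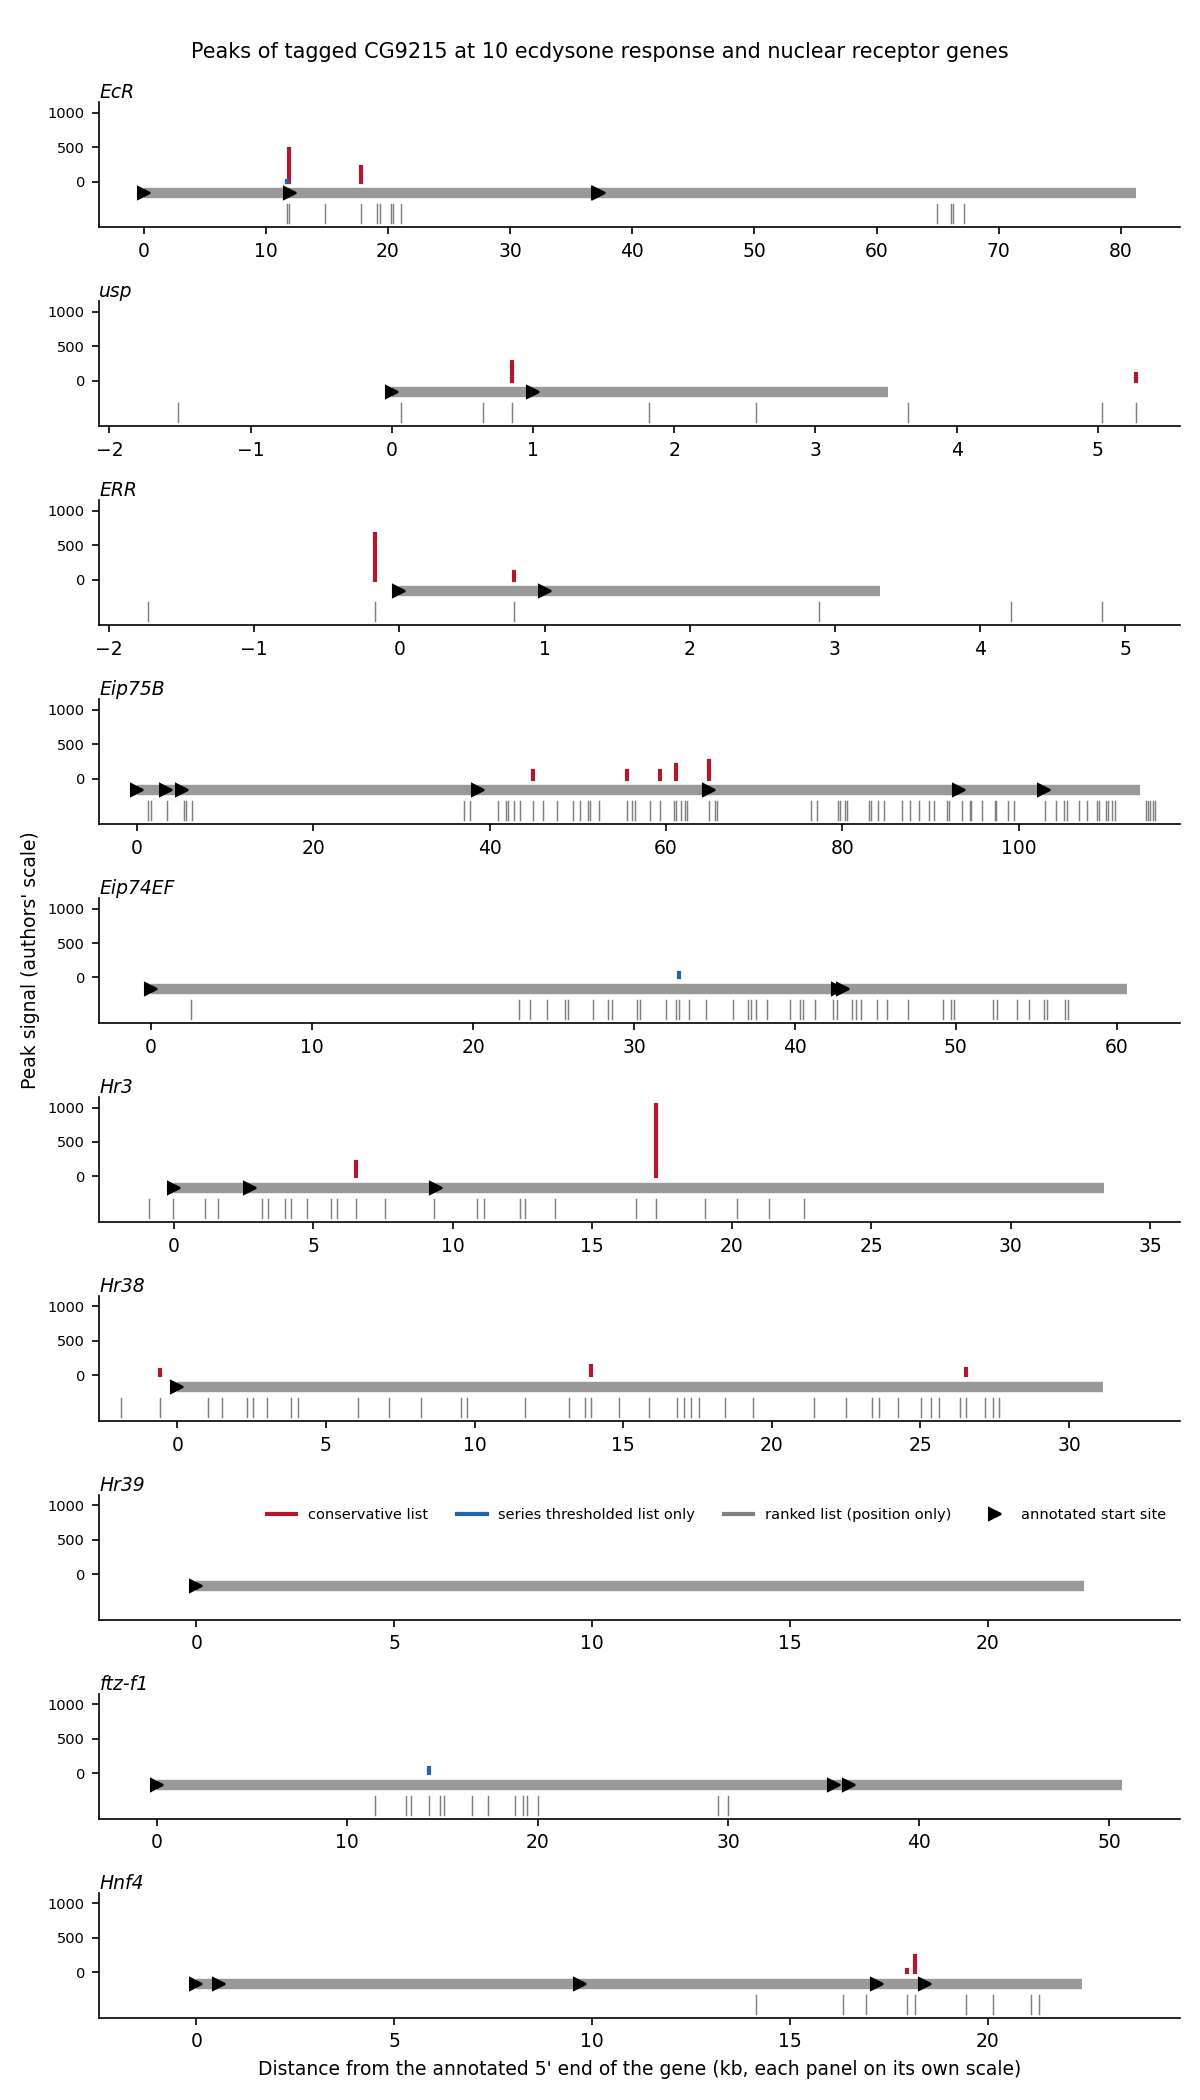
Peak summits along the 10 genes, drawn 5' to 3', with distance from the annotated 5' end in kb on the x axis and peak signal on the y axis. Red bars are conservative peaks, blue bars peaks of the other thresholded series list alone, grey ticks all ranked series peaks (position only), grey boxes gene bodies and arrowheads start sites; the highest bar is the Hr3 intron peak at 1043, and Hr39 has neither bars nor ticks.

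Signals below are the authors' own values per peak, used to describe and rank peaks within 1 list. The 18 conservative signals ran from 31.2 to 1043 with a median of 167, beside a median of 146 over all 3718 conservative peaks, and 9 of the 18 lay above that median. In order of the strongest conservative peak, the genes were Hr3 with 1043, ERR with 667, EcR with 477, usp with 276, Eip75B with 253, Hnf4 with 232 and Hr38 with 132. Hr3, ERR and EcR held places 1 to 3 among the 10 genes in the ranked list of each replicate too. Hnf4 held place 6 in replicate 1 with 84.6 and place 4 in replicate 2 with 141, so the order among usp, Eip75B and Hnf4 was not the same in both replicates. Hr38 held place 7 in both, with 66.9 and 64.5.

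**Figure D3:**
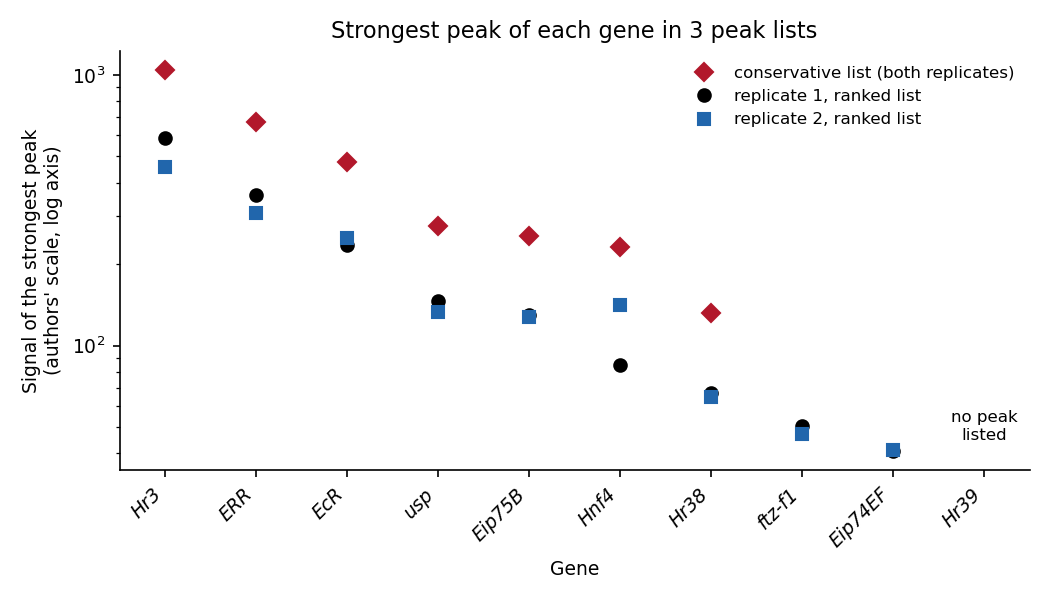
Signal of the strongest peak at each gene (log axis) in the conservative list and in the ranked list of each replicate. Hr3, ERR and EcR lead in all 3 lists, usp, Eip75B and Hnf4 lie close together, and Hr39 has no peak listed.

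Of the receptor pair itself, EcR (FBgn0000546, 2R:6087873-6169087, minus strand) carried its stronger summit at 2R:6157180, 51 bp upstream of the start shared by transcripts EcR-RD and EcR-RE and in an intron of a longer transcript. The signal was 477, rank 373 of 3718, with 236 in replicate 1 and 249 in replicate 2. A second EcR summit lay in an intron at 2R:6151287, 5842 bp from that start, with a conservative signal of 215 and replicate signals of 140 and 91.5. The annotated start nearest to the second summit was that of tRNA:Asn-GTT-1-1, 1389 bp away. Both EcR peaks passed the threshold in each replicate's own list, an irreproducible discovery rate (IDR) of at most 0.01. The IDR is an estimate of the share of peaks that do not recur.

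For usp (FBgn0003964, X:2038798-2042311, minus strand), the stronger summit lay at X:2041459, 147 bp upstream of the usp-RA start, with a conservative signal of 276 and 146 and 133 in the replicates. The usp-RA start was the nearest one, but the summit also lay inside Actn, the alpha-actinin gene that spans usp. A start of CG4313 was within 500 bp too, so the peak cannot be given to usp alone. The first base of the longer usp transcript, usp-RB, is also a start of Actn. It had no conservative summit within 500 bp, and the ranked peaks there had signals of 13.5 and 10.3. The weaker usp summit, at X:2037042, lay past the 3' end of the gene and 423 bp from a start site of Actn. Its conservative signal was 92.3, and it passed in replicate 1 with 47.1 but not in replicate 2, where a signal of 42.0 had an IDR of 0.758.

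Among the early response genes, Eip75B (FBgn0000568, 3L:17950953-18064696, minus strand) had the most summits of the 10, and all 5 lay within 20045 bp of each other in a gene of 114 kb. The strongest, at 3L:17999795, lay 26 bp downstream of the Eip75B-RC start, inside its 5' untranslated region, with a conservative signal of 253 and 130 and 128 in the replicates. The other 4 were intronic. That at 3L:18003545, 3724 bp upstream of the same start, had a conservative signal of 201.4 and 71.1 and 121 in the replicates, and it too passed in both.

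The remaining Eip75B summits were weaker and passed in 1 replicate each. At 3L:18019840 the conservative signal was 113, with 53.5 in replicate 1, where it passed, and 60.9 in replicate 2, where its IDR was 0.0152. At 3L:18005343 it was 111, with 63.9 in replicate 2, where it passed, and 41.7 in replicate 1, where its IDR was 0.0474. At 3L:18009123 it was 104, with 66.7 in replicate 1, where it passed, and 37.6 in replicate 2, where its IDR was 0.785. The outermost Eip75B starts, those of Eip75B-RF at the 5' end and Eip75B-RD farthest downstream, had no conservative summit, and the ranked lists of both replicates had none within 500 bp of Eip75B-RD.

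Eip74EF (FBgn0000567, 3L:17558672-17619325, minus strand), the other early gene, had no conservative summit. Its only thresholded peak was in the other series list, in an intron 9880 bp from the Eip74EF-RB start, with a signal of 70.0 at rank 3821 of 4098. The same place had a signal of 29.7 in replicate 1 and 39.1 in replicate 2, neither of which passed, and the IDR between the replicates was 0.0216. The strongest ranked Eip74EF peaks of the replicates were 40.8, in a coding exon, and 41.3, in an intron, at different positions.

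In the later wave, Hr3 (FBgn0000448, 2R:10203995-10237348, minus strand) held the strongest peak of all 10 genes, and it lay away from promoters. Its summit at 2R:10220058 was in an intron, 7899 bp from the start of Hr3-RA, Hr3-RF and Hr3-RH. That was also the nearest annotated start, and CG46321 shares it. The conservative signal was 1043, rank 95 of 3718, with 582 in replicate 1 and 457 in replicate 2. Among the 1763 conservative peaks on assembled chromosomes with summits more than 500 bp from any start site, it ranked 15 by signal. Among the 481 more than 5 kb from any start site, it ranked 3. The genes CG12912 and CG46321 overlap this position, so the peak cannot be given to Hr3 alone. A second Hr3 intron summit, at 2R:10230820, had a conservative signal of 203 and replicate signals of 110 and 93.5. It too lay inside CG12912 and nearest to the start shared with CG46321, so it cannot be given to Hr3 alone either. None of the 3 Hr3 start sites had a conservative summit within 500 bp, and the strongest ranked peaks there were 14.3 in replicate 1 and 25.2 in replicate 2.

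The gene ftz-f1 (FBgn0001078, 3L:18750607-18801309, minus strand), whose receptor product is a partner of the segmentation protein Fushi tarazu in the embryo, had no conservative summit. An intron peak 14308 bp from the ftz-f1-RB start was in the other series list with a signal of 84.5. It passed in replicate 1, with 50.3 and an IDR of 0.00481, but not in replicate 2, with 32.8 and an IDR of 0.294. The IDR between the replicates was 0.0137, just outside the threshold of 0.01. The strongest ranked ftz-f1 peak of replicate 2 was another intron peak, with a signal of 47.3. None of the 3 ftz-f1 start sites had a ranked peak within 500 bp in either replicate.

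Hr39 (FBgn0261239, 2L:21237250-21259675, plus strand), a receptor related to the ftz-f1 product, had 0 peaks in all 8 lists. It lay in a stretch with no ranked summit of 114165 bp in replicate 1 and 101050 bp in replicate 2, where the median spacing between neighbouring summits was 715 and 719 bp. Only 16 of 105528 spacings in replicate 1 and 19 of 109767 in replicate 2 were as long, the one at Hr39 included. The stretch takes in 6 other genes, l(2)k14505, CG8671, Mondo, Gr39a, crc and CG46314. Of protein-coding genes of 20 kb or longer, 26 of 1020, or 2.55%, had no peak listed in any of the lists. Whether reads can be placed in this stretch, or whether its peaks were filtered, was not tested, so the absence of peaks is not a measured absence of binding.

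Of the metabolic receptors, ERR (FBgn0035849, 3L:8183361-8186671, minus strand) had the strongest promoter peak of the 10 genes. Its summit at 3L:8186836 had a conservative signal of 667, rank 232 of 3718, with 359 in replicate 1 and 310 in replicate 2. The summit lay 165 bp upstream of the ERR-RA start and 21 bp from the start of Atg18a, a divergent autophagy gene, so it lay at both promoters and nearer to that of Atg18a. A second ERR summit, at 3L:8185881 and 211 bp upstream of the ERR-RB start, had a conservative signal of 107 and passed in both replicates, with 61.0 and 52.2.

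Hnf4 (FBgn0004914, 2L:8687226-8709611, minus strand) had a summit at 2L:8691463, 254 bp upstream of the internal start of Hnf4-RB, with a conservative signal of 232. The replicate signals were 84.6 and 141, and both passed. A second listed Hnf4 peak, with a signal of 31.2 and its summit at 2L:8691666, overlapped the first, so the 18 summits make 17 separate sites. It was assigned the same replicate signals, because these are those of the strongest overlapping peak. Each replicate's thresholded list held 1 Hnf4 peak. The starts of Hnf4-RE and Hnf4-RA at the 5' end of the gene, and that of Hnf4-RD, had no ranked peak within 500 bp in either replicate.

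Hr38 (FBgn0014859, 2L:20683462-20714588, minus strand) had 3 conservative summits, all below the median signal of the list. The intron summit at 2L:20700689 had a signal of 132 and passed in both replicates, with 66.9 and 64.5, and the nearest start was that of lncRNA:CR44187. The summit in the coding exon, at 2L:20688048, had a signal of 92.4 and passed in replicate 1 with 58.9 but not in replicate 2, where 41.0 had an IDR of 0.793. The start nearest to this exon peak was that of CG2617, 5680 bp away. The third, at 2L:20715182 and 594 bp upstream of the Hr38 start, had a signal of 84.9 and passed in neither replicate alone, with 48.1 and 41.4, while its IDR between the replicates was 0.00414.

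By feature, 7 of the 18 summits were at an own promoter, 8 in introns away from promoters, 1 in a coding exon and 1 each in an upstream and a downstream flank. With start sites of any gene counted, 8 of 18, or 44.4% with a Wilson 95% interval of 24.6 to 66.3%, were at a promoter, beside 52.1% of the 3681 conservative peaks on assembled chromosomes. The interval includes the share over all peaks, but it treats the 18 as independent. Of these, 5 lie in Eip75B and the Hnf4 entries overlap, so the interval is a description and no test. The gene windows sum to 462 kb and held 3.89 conservative summits per 100 kb. Over the assembled chromosomes, which take in sequence between genes too, the value was 2.68. Per gene, protein-coding genes of 2 to 5 kb, the class of usp and ERR, had a mean of 0.415 summits. Those of 20 to 50 kb had 1.08 and those of 50 kb or longer 1.59. The density in the gene windows was uneven. It was 26.6 at usp and 27.4 at ERR, the short genes, and 0 at Eip74EF, Hr39 and ftz-f1. At the other genes it ran from 2.35 at EcR to 8.54 at Hr38. Ranked peaks, which are mostly weak, were sparser over the summed gene windows, with 5.34 per 10 kb in replicate 1 and 5.36 in replicate 2. Over the chromosomes these values were 7.67 and 7.98. Single genes differed, and usp with 13.3 in both replicates and Hr38 with 8.54 and 9.96 lay above the chromosome values. So did Hr3 with 9.64 in replicate 1 alone, and ERR with 9.57 and Eip74EF with 8.97 in replicate 2 alone. EcR, with 4.22 and 1.53, ftz-f1, with 2.56 and 2.92, Eip75B, Hnf4 and Hr39 lay below in both. In the ranked series list built from the replicates, 18 of the 235 peaks in these windows, or 7.66%, had an IDR of at most 0.01, beside 3.19% of all peaks of that list on assembled chromosomes. Gene by gene, these 18 match the conservative summits in number. The share thus restates the densities above and is no further difference. The number of ranked peaks at EcR was 36 in replicate 1 and 13 in replicate 2, and at Eip74EF it was 33 and 58.

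In the replicates' own thresholded lists, 12 of the 18 conservative peaks passed in both, 4 in replicate 1 alone, 1 in replicate 2 alone and 1 in neither. The share in both was 66.7%, beside 59.2% of all conservative peaks on assembled chromosomes. The 12 include both Hnf4 entries, which overlap and were assigned the same replicate peaks. The 6 that did not pass in both had conservative signals of 84.9 to 113, and every peak with a signal of 132 or more passed in both. The Spearman correlation between replicate signals over the 18 peaks was 0.83, beside 0.84 over the 3637 conservative peaks ranked in both. Conservative peaks were selected for recurring between these same replicates, so some agreement is built into both correlations. Both Hnf4 entries also bring the same pair of values to the 18. Peaks of 1 genome share their 2 libraries, so these shares and correlations are descriptions without a p-value.

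**Figure D4:**
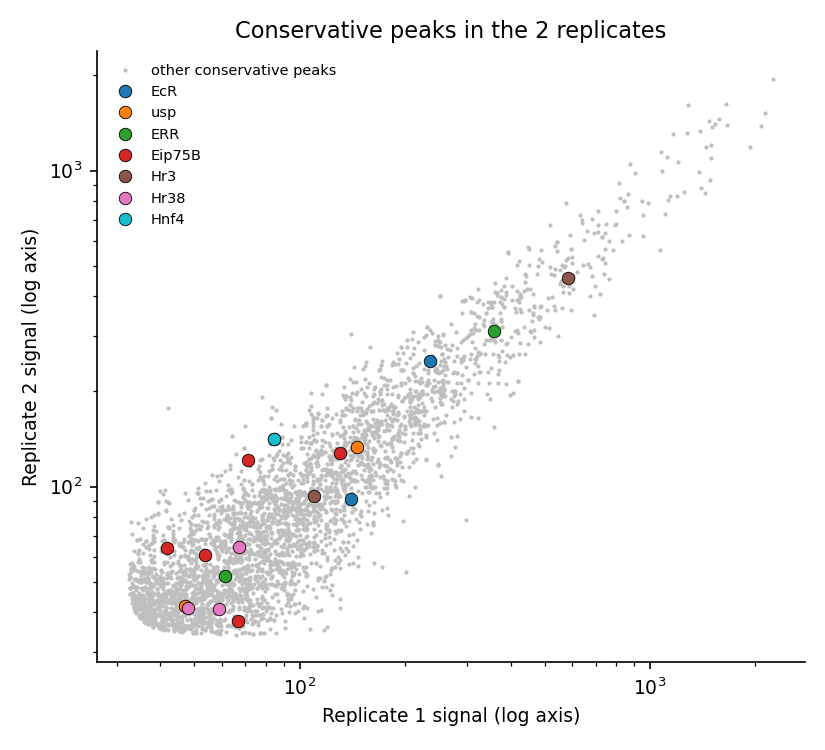
Signal in replicate 1 against replicate 2 for conservative peaks, both axes logarithmic; coloured points are the peaks of the genes named, grey points all others. The Hr3 peak at 582 and 457 is the highest coloured point, and the Hnf4 point at 84.6 and 141 lies above the centre of the cloud.

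The base composition of these summits was spread widely. The A+T share of the windows had a median of 69.3% over the 18 windows and a range of 34.7 to 81.2%, beside medians of 67.3% over all conservative peaks and 51.5% over 113911 ranked peaks that overlap no thresholded peak. A run of at least 8 A or T was present in 13 of 18 windows, or 72.2%, beside 72.8% of all conservative windows and 34.1% of the unthresholded ones. The share at these genes was therefore close to that of the list as a whole. The longest run, of 28 bases, was at the Eip75B intron peak printed above. The highest A+T share, 81.2%, was at the stronger Hnf4 peak and the lowest, 34.7%, at the Hr38 exon peak.

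Neither EcR window had such a run, with A+T shares of 49.5% and 51.5%, although the strongest EcR peak placed EcR 3 in the order of the genes. The intron peak of Hr3, the strongest, had 73.3% and a run of 15. The ERR promoter window had 72.3%. Across all conservative peaks, the median A+T share was 70.3% among the 921 of highest signal and 58.9% among the 920 of lowest.

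**Figure D5:**
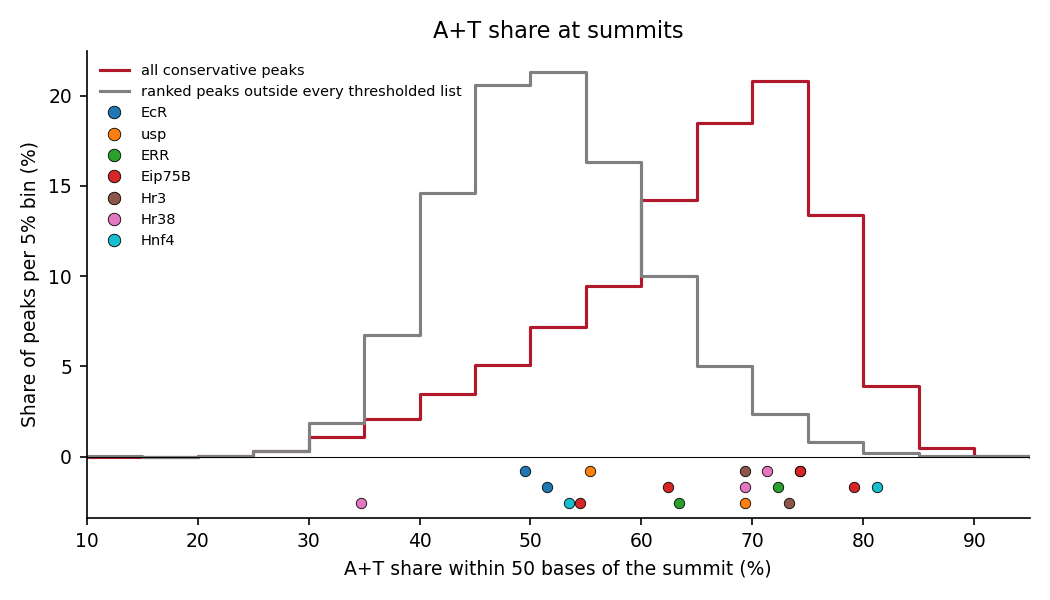
A+T share (%) within 50 bases of summits, as the share of peaks per 5% bin, for all conservative peaks (red line, median 67.3%) and for ranked peaks outside every thresholded list (grey line, median 51.5%). Points under the axis are the 18 peaks by gene, placed at arbitrary heights, from 34.7% at Hr38 to 81.2% at Hnf4.

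The nuclear receptor core AGGTCA, searched on both strands, was in 0 of the 18 windows, beside 1.90% of all conservative and 2.85% of the unthresholded windows. Its extended form CAAGGTCA, which holds AGGTCA, was in 0, beside 0.136% and 0.278%. The DNA replication-related element TATCGATA was in 0, beside 1.71% and 0.205%, and the core promoter element GGTCACAC, which shares GGTCA with the first motif, was in 0, beside 0.706% and 0.244%. GAGAG, a core of GAGA factor sites, was in 3 windows, or 16.7%, at Eip75B-RC, the Hr38 intron peak and the weaker Hnf4 peak, beside 9.75% and 12.6%. With 100 bases to each side, AGGTCA was in 1 of the 18, or 5.56%, beside 3.94% of all conservative and 5.72% of the unthresholded ones. GAGAG was then in 7, or 38.9%, beside 21.1% and 23.7%, and the other motifs were in 0. A match describes letters only.

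The rest of the pathway was read from 3 lists with 52 genes, of which 21 had a conservative summit, or 40.4%, and 10 a summit within 500 bp of an own start, or 19.2%. These stand beside 30.6% and 17.3% of all protein-coding genes. Of the 17 pathway genes of 20 kb or longer, 9 had a summit, beside 56.0% of all such protein-coding genes. Of 14 genes for making, moving and clearing the hormone, such as dib, sad and shd, which encode cytochrome P450 enzymes of its synthesis, 1 had a summit and 0 a promoter summit. That one was Ptth, the brain hormone that stimulates ecdysone synthesis, with a signal of 277 at 2114 bp from its start and nearest to the gene cold. The genes of this list have a median length of 3.33 kb, a class in which 32.4% of genes had a summit. Of its 4 genes of 20 kb or longer, 0 had one.

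Among 12 other nuclear receptor genes, 5 had a summit, or 41.7%, and 3 a promoter summit. Their median length is 8.48 kb, and 40.0% of all protein-coding genes of 5 to 10 kb had a summit. The list mixes lengths, however. Of its 4 genes of 20 kb or longer, 1 had a summit, beside 56.0% of all such protein-coding genes. The promoter peaks were those of Hr96, a receptor of lipid and xenobiotic responses, with a signal of 356 but nearer to the start of EMC6, Hr78 with 92.7, and eg, a factor of neuronal identity, with 81.1. Hr4, an ecdysone-responsive receptor gene of 66.0 kb, held 9 summits, more than any of the 10 genes above, of up to 369 and none at its promoter. Hr96 held 2 and Hr51 1, with a signal of 197, nearest to unc-5.

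Of 26 ecdysone-induced genes and cofactors, 15 had a summit, or 57.7%. A promoter summit was found at 7, or 26.9%, beside 17.3% of all protein-coding genes. Their median length is 10.4 kb, a class in which 44.6% of all protein-coding genes had a summit. Of the 26, 9 are 20 kb or longer and 8 of those 9 had one, beside 56.0% of all such protein-coding genes. The long genes gave 0 of 4 in the synthesis list and 1 of 4 among the other nuclear receptors. Over all 3 lists they gave 9 of 17, near the 56.0%. The strongest promoter peak was at tai, which encodes a coactivator of the ecdysone receptor, with a signal of 918, 417 in replicate 1 and 502 in replicate 2, though nearer to the start of CG9586. E23, which encodes an ATP-binding cassette transporter, had 698 at its own start, with 357 and 340. Ldh, the lactate dehydrogenase gene, had 467, with 206 and 255. Alien, a corepressor gene, had 446, nearer to CG18661, Eip63F-1 had 353, the dopamine and ecdysteroid receptor gene DopEcR 167, and trr, a histone methyltransferase gene, 119, nearer to mRpL16. By number of summits, the corepressor gene Smr had 4, of up to 428, and gce, a juvenile hormone receptor gene, tai, E23 and trr had 3 each. The strongest gce peak, at 1056, lay 547 bp from its start, outside the promoter limit, and nearest to asRNA:CR44429.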

How the data were processed

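The authors deposited 8 peak lists on dm6: a ranked and a thresholded list per replicate, and 2 ranked, 1 thresholded and 1 conservative list for the series. Per the labels, chromatin was sonicated, with a size range of 200 to 800. Names and versions of the aligner and peak caller were not found (not given in the sources used here), and the control library was not analysed here. The signal is the deposited value per peak, whose scaling is not stated. The ranked lists hold the −log10 of the IDR as deposited. The files hold no read counts, so depth is unknown. The labels give biological replicates, and the Wilson 95% intervals cover only counting over peaks or genes.

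Summits (peak start plus offset, counted from 1) were placed on Ensembl release 115 gene models (BDGP 6.54) with Python 3.11.15, pandas 2.3.3, numpy 2.4.6, SciPy 1.17.1 and matplotlib 3.10.9. Annotation left out 37 conservative peaks that lie on scaffolds. Replicate signals at a conservative peak are those of the strongest overlapping ranked peak (at least 1 bp). Genes named are the 10 genes, in each pathway list up to 6 genes with the strongest promoter summit and the 3 with most summits, with ties, and genes whose start is nearer to a summit; dib, sad and shd stand as examples of their list, and the Ptth and Hr51 values come under the rule of most summits. The pathway symbols were found in the annotation, 4 through RefSeq synonyms and 1 (phm) by hand. The genes, lists and settings were chosen with earlier results of these data known. The assignment of summits to gene windows was tested on simulated data. Alternatives were other flanks, promoter widths, lists and windows.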

Additional observations from a re-analysis of the deposited data

How the results depend on the processing

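Of 9 alternatives, some of which read another list, none left fewer than 6 or more than 9 of the 10 genes with a summit. In the analysis as reported, 7 had a conservative summit. The other thresholded series list added Eip74EF and ftz-f1, for 9, and keeping only conservative peaks above the median signal left out Hr38, for 6. Without replicate 1 the count was 7 genes, from the thresholded list of replicate 2. Without replicate 2 it was 8, from the thresholded list of replicate 1, with ftz-f1 added. The number of summits, 18 as reported, was 9 above the median signal, 12 without replicate 1 and 18 without replicate 2. Those 18 of the replicate 1 list were not the same set as the 18 reported. Merging overlapping peaks, chosen after seeing the data, gave 17. Genes with an own promoter summit were 5 as reported, 4 within 250 bp, without Hnf4, and 6 within 1000 bp, with Hr38. Without either replicate the count was 5. The promoter share of the summits ran from 27.8 to 55.6%. Of the pathway genes, 12 in place of 21 had a summit with no flank, and 6 in place of 10 had a promoter summit when only the nearest start counted. Without a replicate these counts were 18 to 20 and 7 to 9. No paired analysis was possible because there is 1 group.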

Other observations

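The thresholded lists also held weak entries beside stronger peaks of the same genes. These were a signal of 10.9 at EcR and 4.08 at Hr38 in the series list, and 6.78 at usp and 19.0 at Eip75B in that of replicate 1. The gene br, which encodes the Broad zinc finger factors and was picked out after its values were seen, had 2 conservative summits of up to 377, with 206 and 165 in the replicates, the stronger 3409 bp from an own start.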
